A study of Mus musculus with 24 samples.

Results

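The response of insulin-treated mouse hepatocytes to GW4064, a compound that activates the bile acid receptor FXR, was read from 12 of the 24 arrays of the series: all arrays whose title names insulin. These were 6 arrays with GW4064 and 6 with its solvent DMSO, in 4 groups of 3. Each GW4064 array was set against the DMSO array of the same experiment and the same hairpin, which gave 6 pairs.

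The cells were primary hepatocytes of male C57Bl6J mice, and each of the 3 experiments used 1 pool of cells from 3 mice, per the series' design text. Every culture had received an adenovirus at a multiplicity of infection of 5, carrying a hairpin against FOXA2 (shFOXA2.3 in the labels, shFOXA2 here) or against lacZ (shlacZ), a bacterial gene that mouse cells lack. The 4 groups were shlacZ with insulin and DMSO, shlacZ with insulin and GW4064, shFOXA2 with insulin and DMSO, and shFOXA2 with insulin and GW4064. All had 1 nM insulin, 100 nM dexamethasone in the medium and a joint treatment of 4 h, and GW4064 was given at 2 µM. No group was free of virus, of dexamethasone or of hormone, and the knockdown rested on 1 hairpin. The other 12 arrays had 100 nM glucagon in place of insulin and serve here for comparison only.

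FXR, the product of Nr1h4, is a nuclear receptor that binds bile acids and acts on DNA mostly as a heterodimer with RXR. In liver its activation is known to raise Nr0b2, which encodes the corepressor SHP, and the bile salt export pump Abcb11, and to lower the bile acid synthesis enzymes Cyp7a1 and Cyp8b1. Insulin signals the fed state, in which bile acids return from the gut and reach FXR in the liver.

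The deposited values were log2 expression values, and the median of all of them, 3.25, marks levels close to background. The medians of the arrays lay between 3.21 and 3.26, and the 12 insulin arrays correlated with each other at 0.984 to 0.997 across the 22180 genes tested. All 14 measured hepatocyte markers, such as Alb and Apoa1, lay above 3.25 in mean level, with a median of 8.99. Of 14 macrophage and Kupffer cell markers 2 did so (Cd68 was one), and the defining markers Adgre1 and Clec4f were close to background. Of 12 endothelial, 12 stellate cell and 8 bile duct cell markers 9, 6 and 4 did so, and of 10 lymphocyte and 2 erythroid markers 0. Foxa2 itself was lower with its hairpin than with shlacZ in 6 of 6 insulin pairs of the same experiment and drug: 5.70 against 6.29 and 5.70 against 6.14 in experiment 1, 5.54 against 6.28 and 5.59 against 6.07 in experiment 2, and 6.08 against 6.22 and 5.98 against 6.21 in experiment 3. In such bulk samples, fewer cells of a type and less RNA per cell cannot be told apart.

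Averaged over both hairpins, GW4064 raised 2 genes and lowered 0 of the 22180 tested under insulin (0.00902% called; limma on the 12 pairs of the series, adjusted p under 0.05 over all genes). These were Mybl1 and Id2. At an unadjusted p under 0.05 there were 499 genes higher (2.25%) and 640 lower (2.89%), together 5.14% of all. The median difference over all genes was -0.01 on the log2 scale. Only 8 genes differed by over 1.5-fold (0.0361%): Mybl1, Id2, Il22ra1, Map3k13, Mir5124a and Nr1i2 were higher, and Cxcl2 and Gm10139 lower. The 95% interval of the difference lay within 1.5-fold in both directions for 99.6% of genes. Only 10953 of the 22180 lay above 3.25 in mean level, and for the others a narrow interval does not show that there was no response.

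Mybl1 encodes A-Myb, a transcription factor of the Myb family that is best known from male germ cells. In experiment 1 its log2 level was 5.51 with DMSO and 6.69 with GW4064 in shlacZ cells, and 5.80 and 7.11 in shFOXA2 cells. In experiment 2 it was 5.70 and 6.56 with shlacZ, and 5.93 and 6.75 with shFOXA2. In experiment 3 it was 5.08 and 5.76 with shlacZ, and 5.01 and 6.59 with shFOXA2. The GW4064 array was the higher one in every pair, and the groups overlapped only through the low shlacZ GW4064 array of experiment 3. The mean rose from 5.51 ± 0.38 to 6.58 ± 0.45 (SD, n = 6 arrays in 3 experiments). This was a log2 difference of 1.07 (SE 0.13, 95% interval 0.79 to 1.35), or 2.10-fold, with a limma adjusted p of 0.0116. The relatives Myb and Mybl2 were close to background and differed by 0.05 (interval -0.15 to 0.25) and -0.13 (interval -0.29 to 0.03), and neither passed.

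Id2 encodes a helix-loop-helix protein without a DNA-binding region, which holds other factors of that kind in inactive dimers. In experiment 1 its log2 level was 6.32 with DMSO and 7.13 with GW4064 in shlacZ cells, and 6.31 and 7.46 in shFOXA2 cells. In experiment 2 it was 5.81 and 6.84 with shlacZ, and 5.82 and 6.75 with shFOXA2. In experiment 3 it was 6.97 and 7.18 with shlacZ, and 6.36 and 7.28 with shFOXA2. All pairs went up, by at least 0.82 in 5 of them and by 0.20 in the shlacZ pair of experiment 3, whose DMSO array was high and lay above 2 of the GW4064 arrays. The mean rose from 6.26 ± 0.43 to 7.11 ± 0.27 (SD, n = 6 arrays in 3 experiments), a log2 difference of 0.84 (SE 0.10, interval 0.63 to 1.05), or 1.79-fold, with a limma adjusted p of 0.0116. The family members Id1, Id3 and Id4 differed by -0.01, 0.23 and 0.03 and did not pass.

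**Figure D1:**
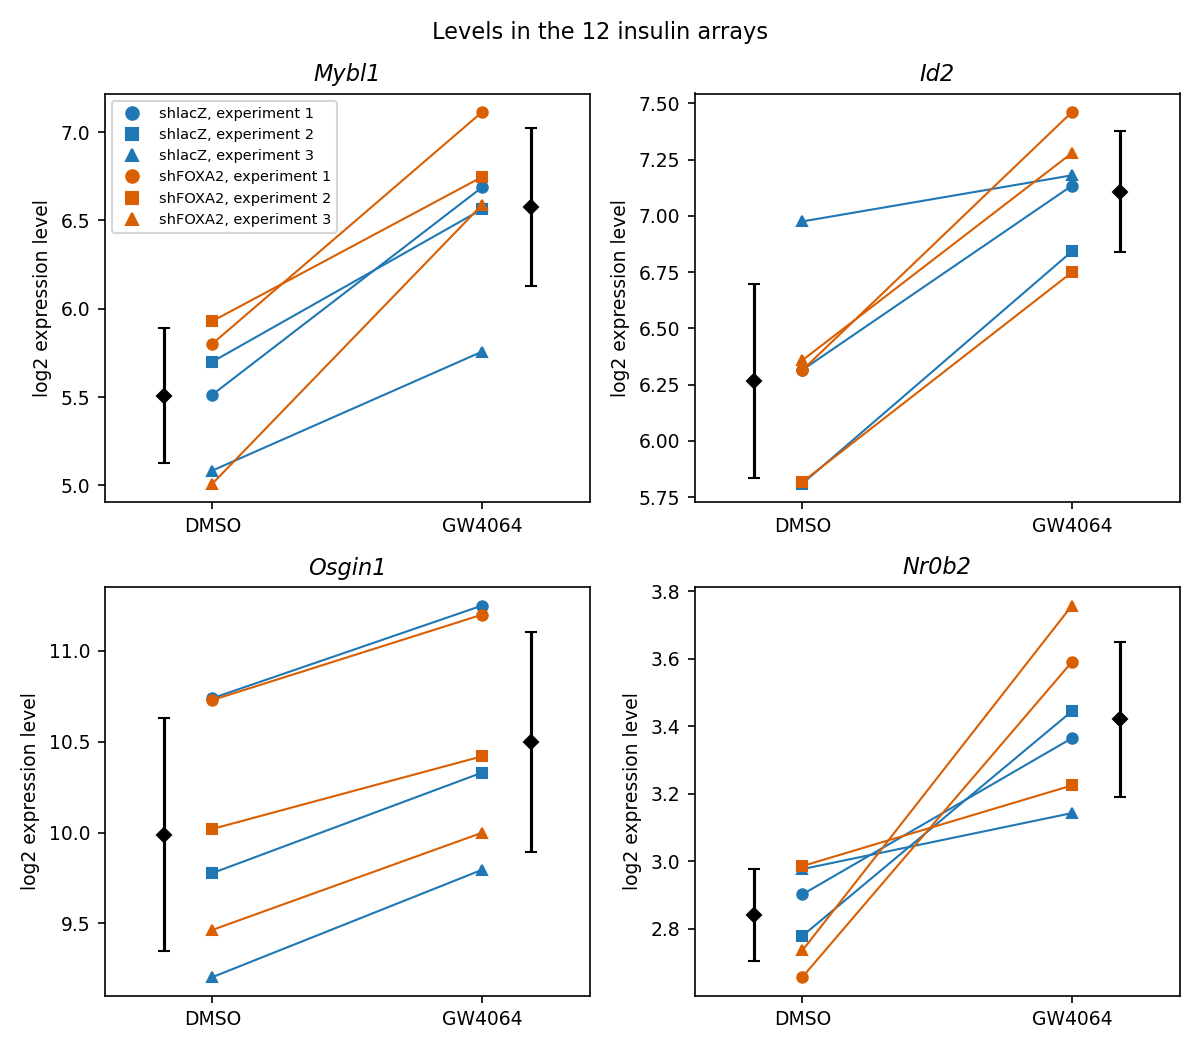
Log2 expression level (y axis) of Mybl1, Id2, Osgin1 and Nr0b2 in the 12 insulin arrays with DMSO and GW4064 (x axis); lines join the arrays of a pair, colours show the hairpin and symbols the experiment, and black diamonds with bars give mean ± SD of 6 arrays. Every line goes up, with Mybl1 moving from a mean of 5.51 to 6.58 and Id2 from 6.26 to 7.11; the Nr0b2 arrays lie near the background level of 3.25.

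Both calls rested on the pairing and on several of the experiments and pairs. Without the replicate block of pairs 0 genes passed, with adjusted p of 0.818 for Mybl1 and 1.00 for Id2, and with only the experiment number as a replicate block the same 2 genes passed. The pairs of an experiment share a pool of cells: with the hairpins averaged within each experiment first, which leaves 3 differences, 0 genes passed and both had an adjusted p of 0.0647. Over the 19 alternatives the adjusted p ran from 0.00190 to 0.818 for Mybl1, with log2 differences of 0.98 to 1.18. For Id2 it ran from 0.000597 to 1.00, with differences of 0.76 to 0.98. Without experiment 1 or experiment 2, the shlacZ pair of either, or the shFOXA2 pair of experiment 1, 0 genes passed; Mybl1 also missed the threshold without experiment 3 or its shFOXA2 pair, at 0.0544 and 0.0732.

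The promoters of Id2 and of the FXR targets Osgin1 and Nr0b2 are shown because Id2 passed the test here, the other 2 are known FXR targets, and all 3 have an entry in the RefSeq promoter table (GRCm38.p6). Mybl1 has none. Each stretch holds the 250 bases before the annotated start, 5′ to 3′ on the gene's strand, at chr12:25096093-25096342 (minus strand) for Id2, chr8:119436897-119437146 (plus strand) for Osgin1 and chr4:133553126-133553375 (plus strand) for Nr0b2. Capitals mark matches to the motifs named next.
Id2: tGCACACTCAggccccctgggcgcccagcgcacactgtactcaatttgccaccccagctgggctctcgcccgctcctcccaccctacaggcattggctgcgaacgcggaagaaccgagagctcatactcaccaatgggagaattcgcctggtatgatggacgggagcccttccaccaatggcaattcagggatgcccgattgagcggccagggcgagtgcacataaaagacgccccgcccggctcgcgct
Osgin1: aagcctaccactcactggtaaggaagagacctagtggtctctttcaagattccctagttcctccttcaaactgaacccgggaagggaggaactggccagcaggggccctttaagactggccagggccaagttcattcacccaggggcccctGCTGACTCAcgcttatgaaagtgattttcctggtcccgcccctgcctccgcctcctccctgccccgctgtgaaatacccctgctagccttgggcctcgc
Nr0b2: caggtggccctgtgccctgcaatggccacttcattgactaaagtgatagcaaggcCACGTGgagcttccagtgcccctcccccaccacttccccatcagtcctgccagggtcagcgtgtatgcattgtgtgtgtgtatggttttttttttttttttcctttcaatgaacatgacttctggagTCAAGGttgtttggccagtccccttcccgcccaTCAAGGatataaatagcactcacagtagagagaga
The motifs searched on both strands were the nuclear receptor core AGGTCA, its inverted repeat with a spacer of 1 base (IR-1, with up to 2 mismatches), which the FXR and RXR pair binds, TCAAGG of LRH-1, the E-box CACGTG, the antioxidant response cores TGACNNNGC and TGAGNNNGC, and TGACTCA of AP-1. Neither AGGTCA nor the inverted repeat was found in these 3 windows, which says only that these letters are not there. Across the 32851 promoters of the table, 14.0% held AGGTCA and 0.959% the inverted repeat. Nr0b2 held TCAAGG at 68 and 35 bases before its start and CACGTG at 195, motifs present in 12.5% and 6.02% of promoters. Osgin1 held TGAGNNNGC (as GCTGACTCA on the strand shown) at 99 bases before its start, overlapping a TGACTCA that begins at 97, and Id2 held it at 249. Of all promoters 14.4% held TGAGNNNGC, 10.2% TGACNNNGC and 4.46% TGACTCA. Of the 20 genes with the smallest p, 14 had an entry, of which 3 held AGGTCA (Dgka, Slc7a7 and Fam243) and 0 the inverted repeat.

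Osgin1 and Nr0b2, both known FXR targets, went the same way in every insulin pair but did not pass. Osgin1 encodes an oxidative stress-induced growth inhibitor. In experiment 1 its log2 level was 10.74 with DMSO and 11.25 with GW4064 in shlacZ cells, and 10.73 and 11.20 in shFOXA2 cells. In experiment 2 it was 9.78 and 10.33, then 10.02 and 10.42, and in experiment 3 it was 9.20 and 9.79, then 9.46 and a value 0.53 higher. The experiments lay further apart than the drug groups, which overlapped, while the 6 pair differences were even, between 0.40 and 0.59. The mean was 9.99 ± 0.64 with DMSO and 10.50 ± 0.61 with GW4064 (SD, n = 6), a difference of 0.51 (SE 0.089, interval 0.32 to 0.70), with a limma adjusted p of 0.163.

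Nr0b2 had log2 levels of 2.90 with DMSO and 3.37 with GW4064 in shlacZ cells of experiment 1, and of 2.66 and 3.59 in shFOXA2 cells. In experiment 2 they were 2.78 and 3.44, then 2.99 and 3.23, and in experiment 3 they were 2.98 and 3.14, then 2.74 and 3.76. All DMSO arrays lay below 3.25 and below all GW4064 arrays, so the groups did not overlap. Over all genes, 12 were higher (0.0541%) and 27 lower (0.122%) without overlap. The Nr0b2 difference was 0.58 (SE 0.12, interval 0.32 to 0.84) with an adjusted p of 0.576 by limma, and it is set against near-background signal.

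Of the 20 genes with the smallest p, 14 were higher and 6 lower with GW4064. They were chosen by this contrast, so their directions are a description. Next to Mybl1 and Id2 came Sik1 and Ppl, both at an adjusted p of 0.0847 (limma). Sik1, a salt-inducible kinase that restrains CREB coactivators, lay between 6.81 and 7.25 on the DMSO arrays and between 7.03 and 7.65 with GW4064, a difference of 0.36. Ppl, which encodes the cytoskeletal linker periplakin, lay between 7.19 and 8.15 and between 7.66 and 8.68, a difference of 0.50. Both groups overlapped across experiments, although all 6 pairs were higher. The relatives Sik2 and Sik3 differed by 0.04 and -0.06.

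Il22ra1, a receptor subunit for interleukin-22, differed by 0.65 (adjusted p = 0.112, limma), with pairs from 0.13 to 1.26. Map3k13, a kinase of stress signalling, differed by 0.60 (adjusted p = 0.118, limma), with all pairs at 0.34 or more. Mir5128 (0.45), Zfp712 (0.36), the focal adhesion gene Tns2 (0.34), Mir149 (0.29), the actin regulator Wipf3 (0.29) and C330024C12Rik (0.27) completed the higher genes. The lower ones were 2810021J22Rik (-0.41), the cadherin Celsr1 (-0.31), the diacylglycerol kinase Dgka (-0.29), the amino acid transporter Slc7a7 (-0.29), the lipid transporter Abca8b (-0.28) and Fam243 (-0.27). In all, 13 of the 20 were higher in 6 of 6 pairs and 5 lower, against 1.38% and 2.40% of all genes. The choice by the paired p favours genes with 1 sign in all pairs, so this is no separate result. The levels of 5 of the 20 lay below 3.25 on average: Nr0b2, Mir149, Fam243, Celsr1 and C330024C12Rik.

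**Figure D2:**
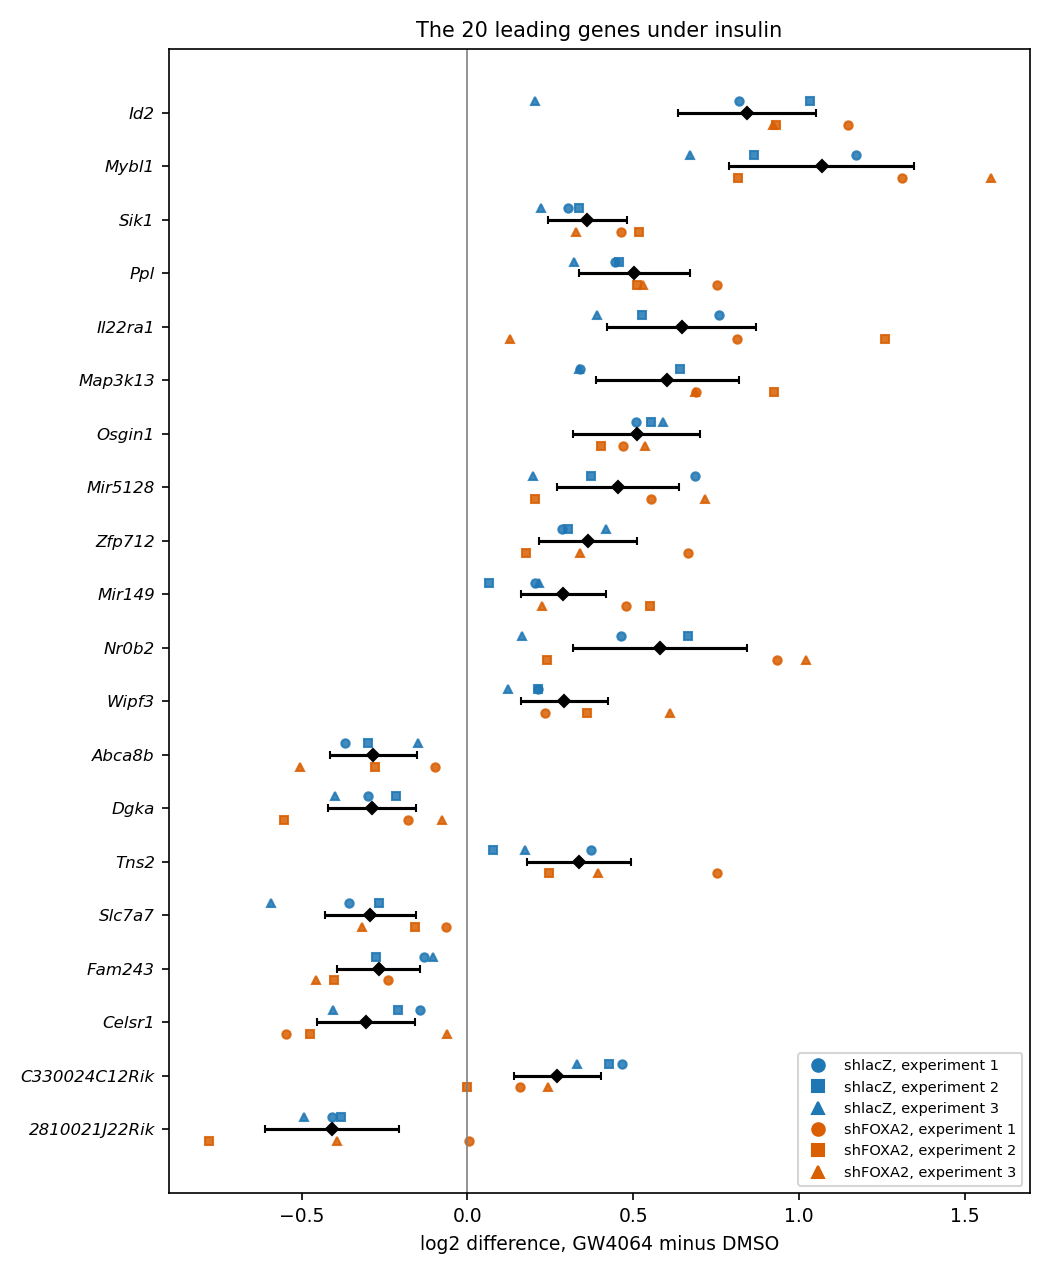
Log2 difference GW4064 minus DMSO (x axis) of the 20 genes with the smallest p under insulin (y axis); small symbols are the 6 pairs by hairpin and experiment, and diamonds with bars are limma's mean difference with its 95% interval. Mybl1 at 1.07 and Id2 at 0.84 passed the adjusted threshold, and the shlacZ pair of experiment 3 stands low for Id2 at 0.20.

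As a list, the genes taken here as FXR targets had a median difference close to 0. The list was not limited to genes known to be raised in mouse hepatocytes, and 22 of the 27 measured lay above 3.25 in mean level. Of 30 listed genes 27 were measured, 0 passed, and 3 were higher and 0 lower at an unadjusted p under 0.05: Nr0b2, Osgin1 and Fgf21. Over all genes 2.25% were higher and 2.89% lower at that level. The median difference of the 27 was 0.01, against -0.01 over all genes. Of their intervals 25 lay within 1.5-fold, the exceptions being Nr0b2 and Osgin1. Fgf21, a hormone secreted by the liver, differed by 0.27 (interval 0.11 to 0.44), with 5 of 6 pairs higher and a limma adjusted p of 0.755.

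Among bile acid exporters, Abcb11, the bile salt export pump, had log2 levels of 4.35 to 5.87 with DMSO and 4.65 to 5.96 with GW4064. Its pairs were split, 3 of 6 being higher, and the difference was 0.03 (interval -0.17 to 0.22). The phospholipid exporter Abcb4 differed by 0.14 (interval -0.10 to 0.38), the conjugate exporter Abcc2 by -0.02 (interval -0.13 to 0.10), and Slc51a, a subunit of the basolateral bile acid exporter that was near background, by -0.10. The other subunit, Slc51b, was read only by a probe set shared with another gene and is not reported. Among conjugating enzymes Baat differed by -0.06, Slc27a5 by 0.10 and Sult2a1 by -0.03. The fibrinogen genes Fga, Fgb and Fgg differed by 0.05, 0.12 and 0.01, the lipid transfer genes Apoc2, Pltp, Scarb1 and Vldlr by -0.07, -0.14, 0.03 and -0.14, and the transcription regulators Mafg and Ppara by 0.12 and -0.05. Fgf15, whose product signals from gut to liver, was near background and lower in 6 of 6 pairs by -0.11 on average. The remaining list members, Insig2, Cyp3a11, Cyp2b10, Fetub, Sdc1, Slc10a2 and Dhrs9, lay between -0.12 and 0.06.

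Bile acid synthesis and uptake genes did not pass either: of 17, 0 were called, 2 were higher and 1 lower at an unadjusted p under 0.05, and the median was -0.02. The 2 higher genes, Cyp8b1 and Akr1c6, were both near background, Akr1c6 at 2.94 or lower on every insulin array. The lower gene was Slco1a4. The shares over all genes at that level were 2.25% higher and 2.89% lower. Cyp7a1, the rate-limiting enzyme of bile acid synthesis, lay between 2.44 and 2.84 with DMSO and between 2.62 and 2.78 with GW4064, all near background, so a fall could not be read (difference 0.06, interval -0.09 to 0.20). Cyp8b1, the sterol 12-hydroxylase, was also near background at 2.85 ± 0.10 and 3.13 ± 0.16, and differed by 0.29 with 5 of 6 pairs higher. Cyp27a1 and Cyp7b1, enzymes of the alternative pathway with clear signal, differed by -0.10 (0 of 6 pairs higher) and 0.01. Of the uptake transporters, Slc10a1 differed by 0.10, Slco1b2 by -0.10, Slco1a1 by -0.20 and Slco1a4 by -0.31 (interval -0.56 to -0.05), the last with 5 of 6 pairs lower. The bile acid enzymes Hsd3b7, Akr1d1, Akr1c6, Scp2, Amacr, Hsd17b4, Acox2 and Slc27a2 lay between -0.05 and 0.18, and the regulator Nr5a2, which encodes LRH-1, at -0.05. All 17 intervals lay within 1.5-fold, but only 13 of the genes lay above 3.25 in mean level.

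**Figure D3:**
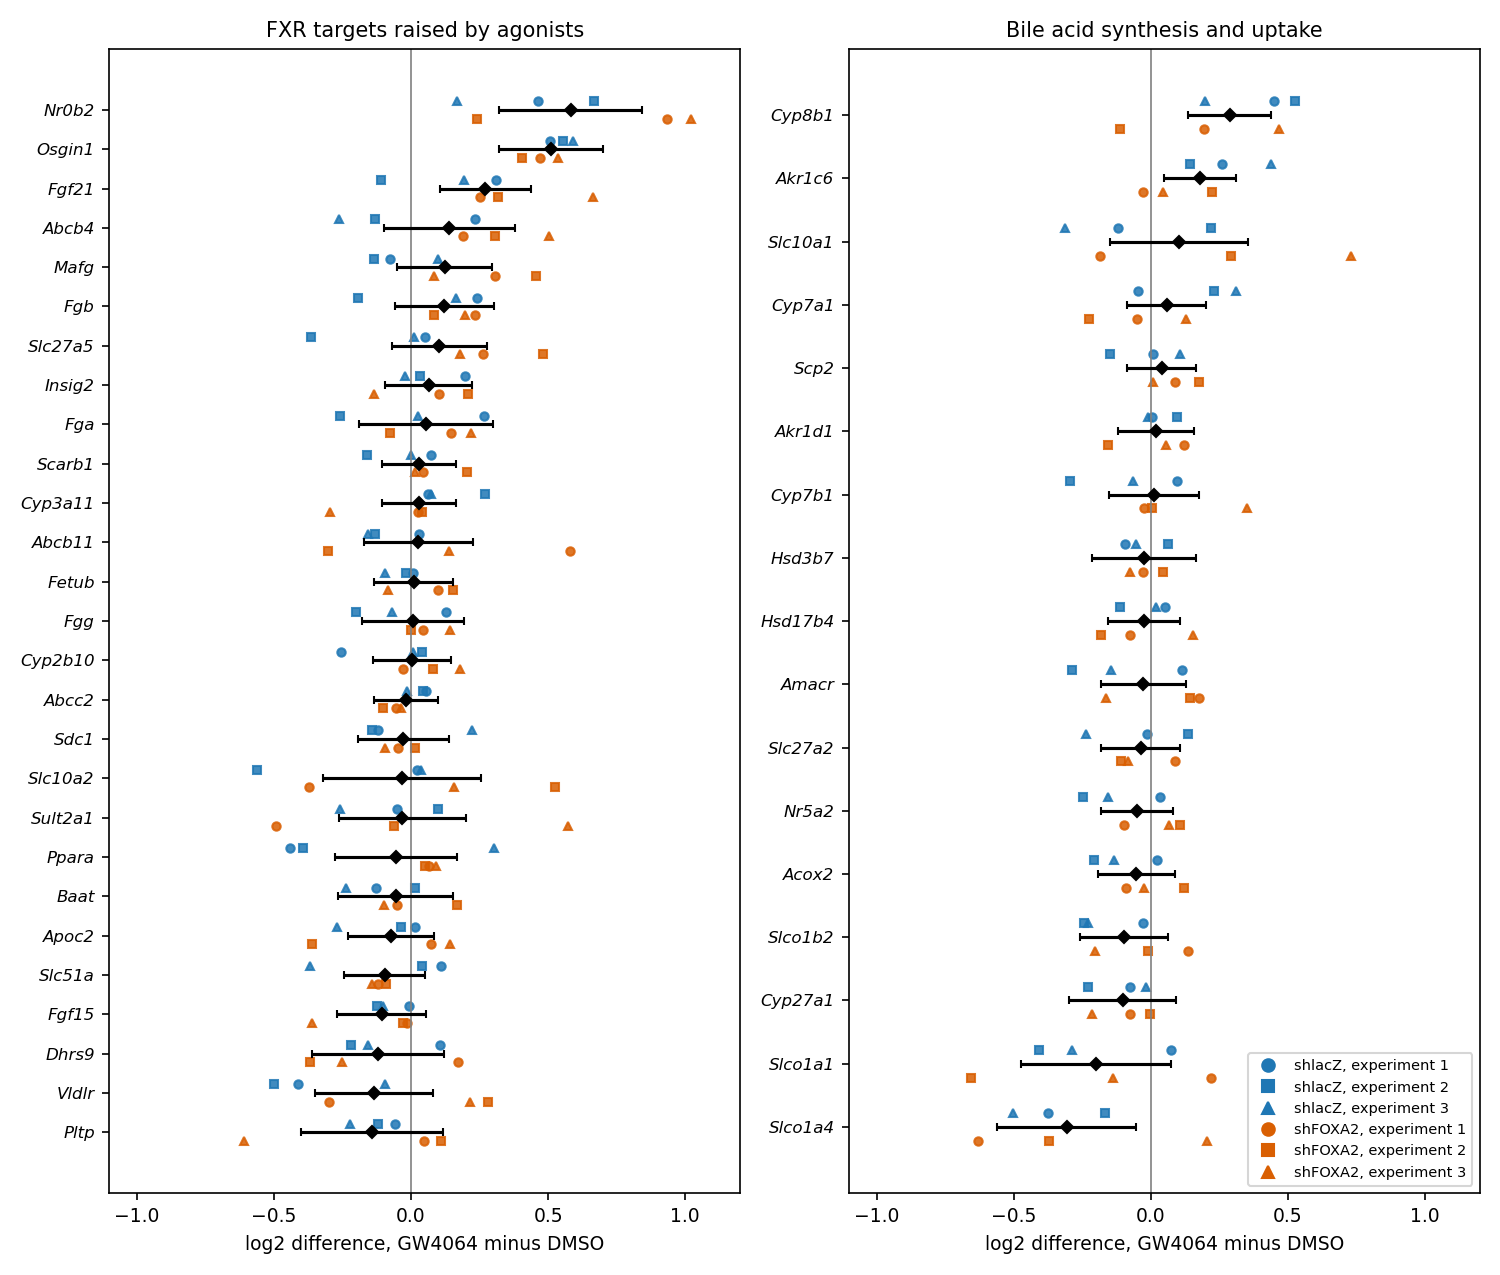
Log2 difference GW4064 minus DMSO under insulin (x axis) by gene list. On the left are the 27 measured genes listed as FXR targets, on the right the 17 bile acid synthesis and uptake genes. Small symbols are the 6 pairs, and diamonds with bars are limma's mean difference with its 95% interval. Nr0b2 at 0.58 and Osgin1 at 0.51 stand apart on the left, and the other means on both sides lie between -0.31 and 0.29.

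The receptor's own gene did not pass. Nr1h4 lay between 5.28 and 6.17 with DMSO and between 5.29 and 6.15 with GW4064, a difference of -0.12 (interval -0.30 to 0.07) with 2 of 6 pairs higher. Of 15 measured genes for FXR and its partners 0 were called, and 1, the coactivator Ncoa3, was lower at an unadjusted p under 0.05 (-0.12). Over all genes 2.89% were lower at that level. Foxa2 differed by -0.07 (interval -0.20 to 0.06).

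Among metabolic genes of the fed and fasted states 0 passed. The gluconeogenic genes Pck1, G6pc and Ppargc1a differed by 0.02, -0.02 and 0.02, at levels near background under insulin. Of 13 gluconeogenesis genes 0 were higher or lower at an unadjusted p under 0.05. The same held for 12 glycolysis and glycogen genes, 16 lipoprotein genes and 13 cholesterol synthesis genes, with list medians of -0.05, -0.00 and -0.03. Of 16 lipogenesis genes 1, the lipogenic regulator Srebf1, was lower at that level (-0.16, 4 of 6 pairs lower, 1 higher and 1 without a difference). Among 13 genes of fatty acid oxidation and ketogenesis, 3 were higher at an unadjusted p under 0.05, in 6 of 6 pairs each: Pdk4, which encodes an inhibitory kinase of pyruvate dehydrogenase (0.34), the peroxisomal enzyme Ehhadh (0.25) and Bdh1 (0.17, near background). The median of that list was -0.01. Over all genes 2.25% were higher and 2.89% lower at that level, and 1.38% were higher in 6 of 6 pairs. Pdk4 had an adjusted p of 0.813 (limma). The count of 3 fell to 1 without experiment 1 or without experiment 2, and stayed at 3 without experiment 3. Of all genes 2.29%, 2.22% and 2.17% were higher at an unadjusted p under 0.05 in these fits. Ehhadh differed by 0.76 in the shFOXA2 pair of experiment 2 and by 0.07 to 0.26 in the others. The smallest pair difference of Bdh1 was 0.0037.

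The hairpin made no difference that passed. Within shlacZ cells 0 genes passed (0.00%) and 6.09% had an unadjusted p under 0.05. Within shFOXA2 cells 0 passed and 4.51% did so. For the difference between the hairpins 0 passed and 4.99% did so (1107 genes, limma). Mybl1 differed by 0.90 in shlacZ and 1.24 in shFOXA2 cells, a gap of 0.33 (interval -0.23 to 0.89). Id2 differed by 0.69 and 1.00, a gap of 0.31 (interval -0.10 to 0.73), Osgin1 by 0.55 and 0.47, a gap of -0.08 (interval -0.46 to 0.30), and Nr0b2 by 0.43 and 0.73, a gap of 0.30 (interval -0.22 to 0.82). The intervals are wide, so these values do not show equal responses. By experiment, Mybl1 differed most between the hairpins in experiment 3, at 1.58 in shFOXA2 cells and 0.67 in shlacZ cells.

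The responses under insulin and under glucagon came from different arrays of the same 3 pools of cells. Under glucagon GW4064 raised 3 genes and lowered 0 (0.0135%, limma): Mybl1, Osgin1 and Otud1. An unadjusted p under 0.05 was reached by 7.30% of genes there. The difference between the 2 responses passed for 1 gene, Id2 (0.00451%), and 5.16% of genes had an unadjusted p under 0.05. Mybl1 rose by 1.07 under insulin and by 0.97 (adjusted p = 0.0351, limma) under glucagon, each with 6 of 6 pairs higher, and the responses differed by 0.10 (interval -0.30 to 0.49).

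For Id2 the values had opposite signs. Its log2 level under glucagon was 8.77 ± 0.05 with DMSO and 8.60 ± 0.25 with GW4064 in shlacZ cells, and 8.89 ± 0.36 and 8.62 ± 0.39 in shFOXA2 cells (SD, n = 3), above every insulin array. The difference there was -0.22 with 1 of 6 pairs higher, and it did not pass. The insulin response exceeded it by 1.06 (SE 0.14, interval 0.77 to 1.35), with a limma adjusted p of 0.0462. With the experiment as replicate block this was 0.132, without a replicate block 1.00, and over the 18 alternatives 0.00265 to 1.00. The call was lost without any 1 experiment, and without any single insulin pair except the shlacZ pair of experiment 3.

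Osgin1 was 1.13 higher with GW4064 under glucagon (adjusted p = 0.000106, limma) against 0.51 under insulin. Its DMSO level there was 7.58 ± 0.43 with shlacZ and 7.67 ± 0.66 with shFOXA2 (SD, n = 3), below every insulin array. The gap of -0.62 between the responses (interval -0.89 to -0.35) did not pass, with an adjusted p of 0.517. Nr0b2 differed by 0.58 and 0.47, and Ppl by 0.50 and 0.48. Otud1, which encodes a deubiquitinase, differed by 0.10 under insulin and 0.47 under glucagon. Abcb11 differed by 0.03 and 0.37, the latter with 6 of 6 pairs higher. Of the 20 leading genes under insulin, 15 had the same sign under glucagon, against 52.9% of all genes. Il22ra1 and Map3k13 had lower values there, 0.24 and 0.15, and neither gap passed.

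**Figure D4:**
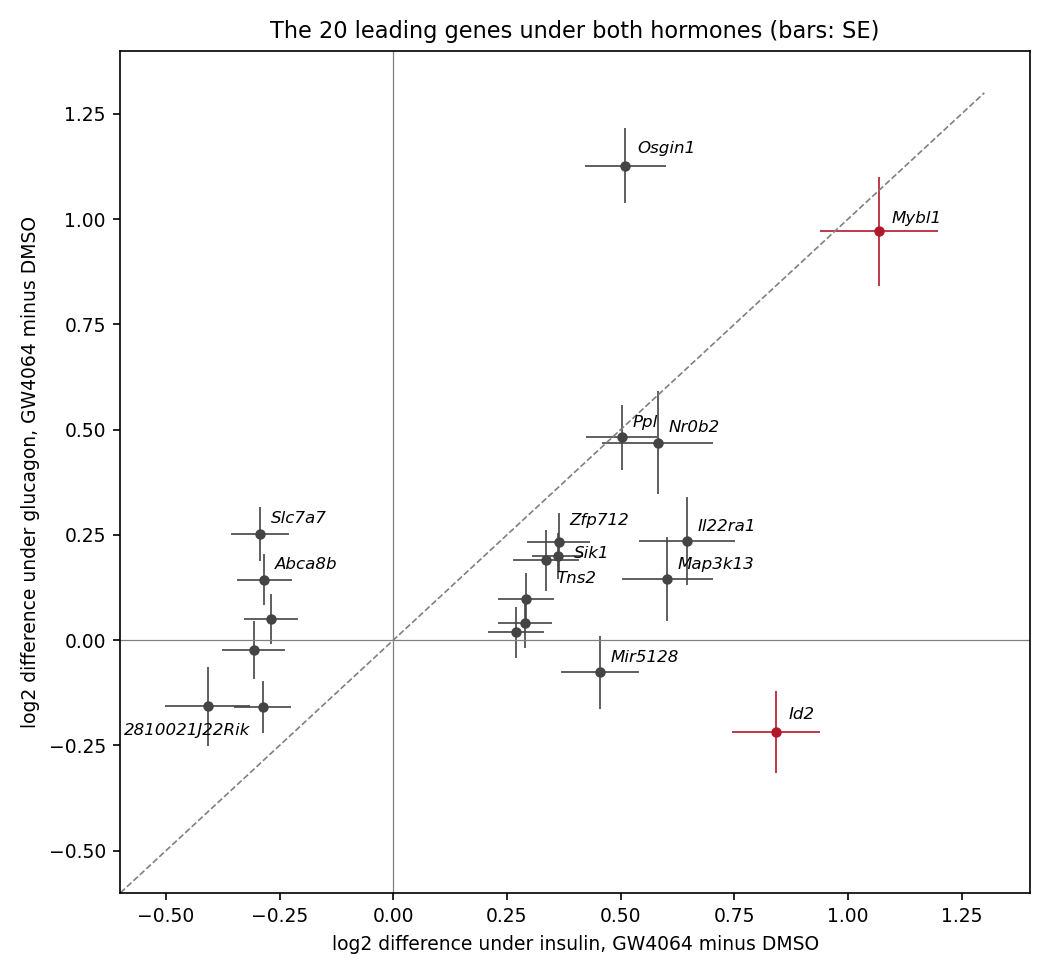
Log2 difference GW4064 minus DMSO under insulin (x axis) and under glucagon (y axis) for the 20 leading genes under insulin, with bars of 1 SE each way; the dashed line marks equal responses and red the 2 genes called under insulin. Mybl1 lies near the line at 1.07 and 0.97, Osgin1 above it at 0.51 and 1.13, and Id2 below it at 0.84 and -0.22.

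Of 20 NF-kB genes and chemokines 0 were called. At an unadjusted p under 0.05, 0 were higher and 7 lower, where 2.89% of all genes were lower, and the other 13 did not reach that level. The median difference was -0.15 against -0.01 over all genes. The 7 included the chemokines Cxcl1 (-0.47), Cxcl2 (-0.75), Ccl20 (-0.32) and Ccl7 (-0.17). The others were the NF-kB regulators Nfkbia (-0.26) and Nfkbiz (-0.31), and the subunit Relb (-0.12). Cxcl2 lay between 5.56 and 5.92 on 5 DMSO arrays and at 8.12 on the shFOXA2 DMSO array of experiment 3, and between 5.20 and 5.64 with GW4064. For Cxcl2 that 1 DMSO array stood apart. It was also the highest of the 12 insulin arrays for Nfkbia, at 8.88 against 8.41 or lower. The same held for Nfkbiz, where the other arrays lay at 5.98 or lower. For Cxcl1 it was highest too, at 8.75 against 8.61 or lower. For Ccl20, Ccl7 and Relb it lay within the range of the other DMSO arrays. The mean of the 20 genes was 6.47 on it and between 6.21 and 6.46 on the 8 arrays of experiments 1 and 2. So that mean did not stand apart from those experiments, but it did within experiment 3. The other 3 arrays of experiment 3 were lower, at 5.74 on the GW4064 partner and 5.64 and 5.49 with shlacZ.

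Without that pair, an alternative added after the values were seen, 2 of the 20 genes were lower at an unadjusted p under 0.05 and the median was -0.08. Without experiment 3 they were 3 and -0.04. Of all genes 2.62% and 2.88% were lower at that level in these 2 fits. The sum of the 14 macrophage markers, on the log2 scale, was 10.10 on that array and 10.03 on its partner, and ran from 8.34 to 10.10 with DMSO and 8.72 to 10.03 with GW4064 overall. Adgre1 lay between 2.22 and 2.85 on all insulin arrays. Cxcl1, Cxcl2, Ccl20, Nfkbia and Nfkbiz were lower in 6 of 6 pairs, as were 2.40% of all genes. In the shFOXA2 pair of experiment 2, Nfkbia was lower by almost nothing (-0.00019) and Nfkbiz differed by -0.04. Under glucagon the median of the list was 0.08. What these differences between arrays rest on was not tested.

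**Figure D5:**
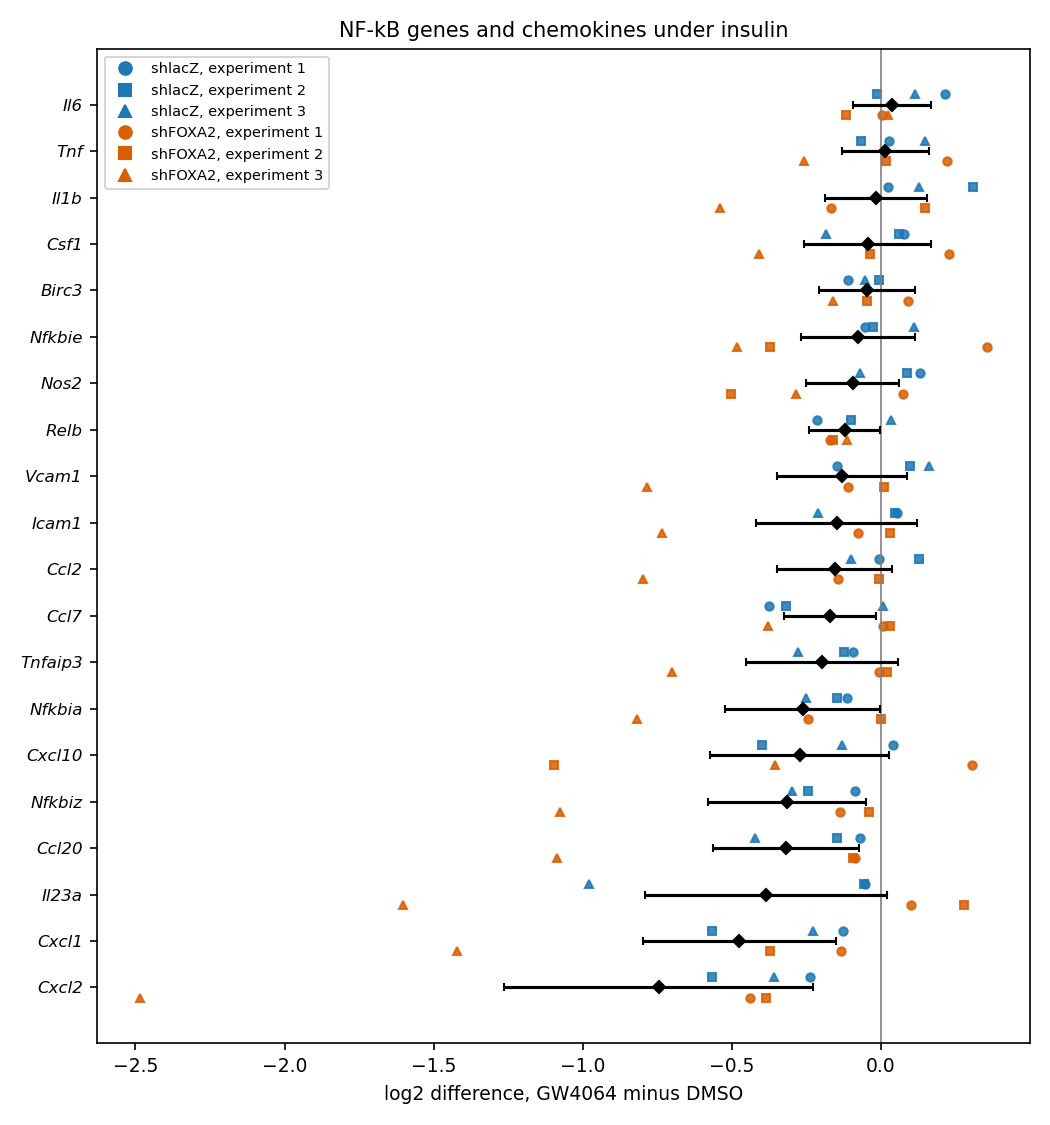
Log2 difference GW4064 minus DMSO under insulin (x axis) for the 20 NF-kB genes and chemokines; small symbols are the 6 pairs by hairpin and experiment, and diamonds with bars limma's mean difference with its 95% interval. The shFOXA2 pair of experiment 3 lies far to the left for several genes, at -2.49 for Cxcl2, and the other pairs lie mostly between -0.5 and 0.3.

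Among 21 early response genes to growth factors and serum, 2 were higher and 1 lower at an unadjusted p under 0.05. The shares over all genes, for this list and those below, were 2.25% and 2.89%. Egr1, an immediate-early transcription factor, was lower in 6 of 6 pairs (-0.31, adjusted p = 0.665, limma), whereas the phosphatase gene Dusp1 (0.17, 6 of 6 pairs) and the growth factor gene Hbegf (0.26, 5 of 6 pairs) were higher. Among 15 NRF2 and oxidative stress genes, 1 was higher at an unadjusted p under 0.05, Osgin1, and Gclc (-0.15) and Slc7a11 (-0.21), which serve glutathione synthesis, and Trp53inp1 (-0.12) were lower. Nfe2l2, the gene of NRF2 itself, was higher in 6 of 6 pairs without reaching that level. Of 16 xenobiotic genes Cyp1a1 (0.54, 5 of 6 pairs) and Nr1i2, the gene of the receptor PXR (0.65, 5 of 6 pairs), were higher at an unadjusted p under 0.05. The pairs of Nr1i2 ran from -0.18 to 1.68, and its adjusted p was 0.900.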

How the data were processed

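RNA was measured on Affymetrix MoGene ST arrays. The deposited values are log2 expression values per probe set, made by the authors in GeneSpring from pooled technical replicates, per the series' design text; the summarization, background correction and normalization used were not given in the sources used here. Of 41345 probe sets, 23521 carried 1 gene symbol in the platform annotation, 1814 several and 16010 none. Of those with 1 symbol, 23328 had a gene number found in the RefSeq annotation and took its symbol, whether or not it differed. The probe set of highest mean stood for each of 22180 genes (1082 had several).

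All 24 arrays were fitted with limma 3.58.1 in R 4.3.3 (lmFit, eBayes): the 12 pairs of experiment, hairpin and hormone as a block, 1 GW4064 effect per condition, 8 residual degrees of freedom, and Benjamini-Hochberg adjustment over all genes at 0.05. The pairing comes from the labels' experiment numbers, which mark shared pools of cells. Deviations from group means correlated at 0.451 to 0.698 within the 6 insulin pairs. Over all 18 comparisons within an experiment they did so at 0.400 to 0.698, so these values do not set the pairs apart from their experiment. Between experiments they were at 0.0413 or less. Deviations from a mean of 3 arrays sum to 0 in a group, which by itself pushes these last correlations below 0. P-values measure the spread between these pairs. The median standard error was 0.072 for the average and 0.10 within a hairpin, and the number of arrays limits the precision. The model was checked on simulated data. The simulated noise was independent between arrays, so that check does not cover drug responses shared by the pairs of 1 pool. The members, gene lists and rules were chosen with earlier results of these data known.

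Genes named were Mybl1, Nr0b2, Osgin1, Nr1h4, Foxa2, all members of the FXR target, bile acid and Myb lists, all genes that passed and the next by p up to 20, and from other lists those that passed or the 2 of smallest p. Others, such as relatives of called genes and list members at an unadjusted p under 0.05, were chosen after their values were seen. Alternatives changed the block, scaling, probe set rule, filter, variance prior and arrays used. Figures were drawn with matplotlib 3.10.9.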

Additional observations from a re-analysis of the deposited data

Results flagged for a closer look

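In 11 of 129 named genes, 1 of the 6 insulin pairs lay far from the other 5. Chance alone sets about 1 in 20 such groups apart. The genes share the same arrays, and many were chosen by their p or their values. So the count is not a test against that rate. For Id2 it was the shlacZ pair of experiment 3, at 0.205 against 0.819 to 1.15 in the others. The shFOXA2 pair of experiment 3 was lowest for 5 inflammatory genes: Cxcl1 (-1.42, others -0.565 or higher), Cxcl2 (-2.49, others -0.566 or higher), Ccl20 (-1.08, others -0.424 or higher), Nfkbiz (-1.08, others -0.300 or higher) and Nfkbia (-0.819, others -0.251 or higher). The same pair was lowest for Fgf15 at -0.361, at levels near background. The shFOXA2 pair of experiment 2 was highest for the peroxisomal enzyme gene Ehhadh (0.756, others up to 0.261) and for Tat, tyrosine aminotransferase (0.606, others up to 0.188). The clock gene Nr1d2 differed least in the shFOXA2 pair of experiment 1 (-0.0125, others -0.131 or lower). The fibrinogen gene Fgb was lower with GW4064 only in the shlacZ pair of experiment 2 (-0.194).

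The GW4064 responses under the 2 hormones differed for Id2 by 1.06, which passed limma's test of that difference at an adjusted p of 0.0462 under the main settings. For 2 other genes every insulin pair went down and every glucagon pair went up, without passing. Insulin minus glucagon was -0.428 for the lipid transporter gene Abca8b (-0.284 and 0.144, adjusted p = 0.50, limma) and -0.546 for the amino acid transporter gene Slc7a7 (-0.293 and 0.253, adjusted p = 0.245, limma). Ppargc1a, a coactivator of fasting genes at levels near background under insulin, was lower with GW4064 in all 3 shlacZ pairs (-0.296) and higher in all 3 shFOXA2 pairs (0.340). That difference of 0.637 did not pass, with an adjusted p of 0.885 (limma).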

How the results depend on the processing

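With 6 pairs from 3 pools of cells and a median standard error of 0.072, small responses and genes near background could not be resolved. The count under insulin, 2 as reported, was 2 with the experiment as replicate block, with arrays centred, with dim genes left out and with probe sets averaged, and 3 with the 12 insulin arrays alone (Map3k13, Mybl1 and Osgin1). It was 0 without a replicate block, 0 with the hairpins averaged first, 0 with all probe sets tested singly, 5 with quantile normalization (Id2, Il22ra1, Mybl1, Ppl and Sik1) and 7 with a variance trend and robust prior (those 5, Map3k13 and Osgin1). Leaving out an experiment or pair gave 0 to 3. What these changes in count rest on was not tested.

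Within shFOXA2 cells the count was 2 with trend and robust prior and 0 to 1 with an experiment or pair left out (Id2 without the shlacZ pair of experiment 3, Il22ra1 without the shFOXA2 pair of experiment 3), and 0 otherwise. Within shlacZ cells and between hairpins it was 0 in every alternative run, the paired block included. For insulin minus glucagon it was 0 without a replicate block, 0 with the experiment as replicate block, 0 with hairpins averaged first, 0 with arrays centred, 0 with dim genes left out, 0 with all probe sets singly and 0 to 1 with an experiment or pair left out. Of the alternative values of single genes, 33 lost the call and 12 gained it, and 0 called values changed sign. Another 9 uncalled values changed sign by over 1 standard error, and 2389 kept their side of the threshold with the same sign or a smaller change of sign.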

Other observations

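Of the remaining lists, 0 genes passed under insulin. Over all genes 2.25% were higher and 2.89% lower at an unadjusted p under 0.05 (limma). Among 15 acute phase genes, 15 genes of ER stress and the amino acid response and 18 genes of autophagy and the lysosome, 0 were higher or lower at an unadjusted p under 0.05 in limma's fit, with list medians of 0.01, -0.02 and -0.02. Of 9 interferon response genes 1 was lower at that level, the ubiquitin-like modifier gene Isg15 (-0.25, 4 of 6 pairs lower). The list median was -0.14, against 0.14 under glucagon. Under insulin it was -0.02 in shlacZ and -0.16 in shFOXA2 cells. Isg15 differed by -0.07 and -0.44 in these cells, a gap that did not pass. Of 14 cell cycle genes 2 were lower at that level: Cdkn1b, which encodes the inhibitor p27 (-0.31, 5 of 6 pairs lower), and Foxm1 (-0.17, near background). Of 15 clock genes Nr1d2 was, in 6 of 6 pairs (-0.13).

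Markers of the cell types a hepatocyte culture can hold showed single differences at this level. The hepatocyte marker Fabp1 was higher by 0.20 on average, with 4 of 6 pairs higher. It differed by -0.01 in shlacZ and 0.42 in shFOXA2 cells, a gap that did not pass. The bile duct marker Sox9, a transcription factor that hepatocytes can also express, lay between 7.35 and 7.89 on the DMSO arrays, and its GW4064 arrays, of which the lowest was at 7.55, overlapped them. It was higher in 5 of 6 pairs by 0.28 on average, and by 0.37 in 6 of 6 pairs under glucagon. It did not pass under either hormone (adjusted p = 0.816 under insulin and 0.267 under glucagon, limma). Cdh5 of endothelial cells was higher in 6 of 6 pairs (0.13) and Lrat of stellate cells, near background, in 5 of 6 (0.16). Of the macrophage, lymphocyte and erythroid markers 0 had an unadjusted p under 0.05.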
